A study of Saccharomyces cerevisiae with 12 samples.

Results

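The 7 genes described here encode regulators of the transcription that opens the cell cycle of *Saccharomyces cerevisiae*: *SRL3* (YKR091W, also called *WHI7*), *WHI5* (YOR083W), *NRM1* (YNR009W), *BCK2* (YER167W), *STB1* (YNL309W), *MSA1* (YOR066W) and *MBP1* (YDL056W). They were chosen by name, *SRL3* for its higher level in cells treated with Congo red (CR) and the other 6 as its paralog *WHI5* and further regulators of the same transcription factors. All 7 were measured, each by 1 probe set, among 5449 genes tested from 5739 probe sets. The response of *SRL3* to CR, the difference of that response between strains and its levels in both strains are therefore given as a description. The other members were tested. The assay was hybridization of total RNA to 12 Affymetrix Yeast Genome 2.0 arrays, 3 for each of 4 groups: *sus1*Δ cells with CR, *sus1*Δ cells without CR, WT cells with CR and WT cells without CR. WT cells were the haploid laboratory strain BY4741 (*MATa his3Δ1 leu2Δ0 met15Δ0 ura3Δ0*), and *sus1*Δ cells carried in the same background, auxotrophies included, the KanMX4 marker in place of *SUS1*, which encodes a small protein shared by the SAGA coactivator and the TREX-2 mRNA export complex. CR, a dye used to stress the yeast cell wall, was given at 30 μg/mL, for 3 h according to the sample titles and the methods but 2 h according to the series design, and the arrays do not tell which holds. Each strain was grown as 3 cultures in rich medium that were each divided into a treated and an untreated part, so an array pair of 1 culture shares its history.

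The commitment to a new cell cycle in late G1, called Start, depends on 2 transcription factors. SBF, made of Swi4 and Swi6, drives genes of G1 cyclins, budding and the cell wall, and MBF, made of Mbp1 and Swi6, drives genes of DNA replication and repair. Whi5 holds SBF inactive until the cyclin Cln3 and its kinase Cdc28 lift the block, and its paralog Srl3 also restrains Start. Bck2 promotes Start by a route that does not need Cln3, Stb1 and Msa1 bind the factors and help to set the timing of G1 transcription, and Nrm1 switches MBF targets off when cells leave G1. SBF also receives a signal from Slt2, the MAP kinase of the cell wall integrity pathway.

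The labels held up on the arrays. *SUS1* was at a log2 signal of 2.82 to 3.34 in CR-treated and 2.55 to 3.05 in untreated *sus1*Δ cells, against 8.32 to 8.53 in CR-treated and 7.90 to 8.66 in untreated WT cells. *LEU2*, *MET17* and *URA3*, which BY4741 lacks, were at or below 4.44 on all 12 arrays, whereas *HIS3*, of which the allele removes an inner part only, was at 9.48 to 10.17. WT arrays varied more than *sus1*Δ arrays, with a median SD per gene of 0.0784 in CR-treated and 0.0712 in untreated *sus1*Δ cells and of 0.148 in both WT groups, and the model used 1 variance per gene for the 4 groups. All values are log2 signals, in which a difference of 1 is a factor of 2, and a level can be compared between groups for 1 gene but not between the probe sets of different genes. On this scale a gene was counted as higher or lower at an adjusted p under 0.05 from limma, with the Benjamini-Hochberg adjustment taken over the 5449 genes and n = 3 arrays per group.

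Of the 7 regulators, *SRL3*, which was chosen for its higher level with CR, had the largest difference with CR and *WHI5* the largest between strains. The plot of all arrays shows both patterns and the smaller ones of the other 5 genes.

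**Figure D1:**
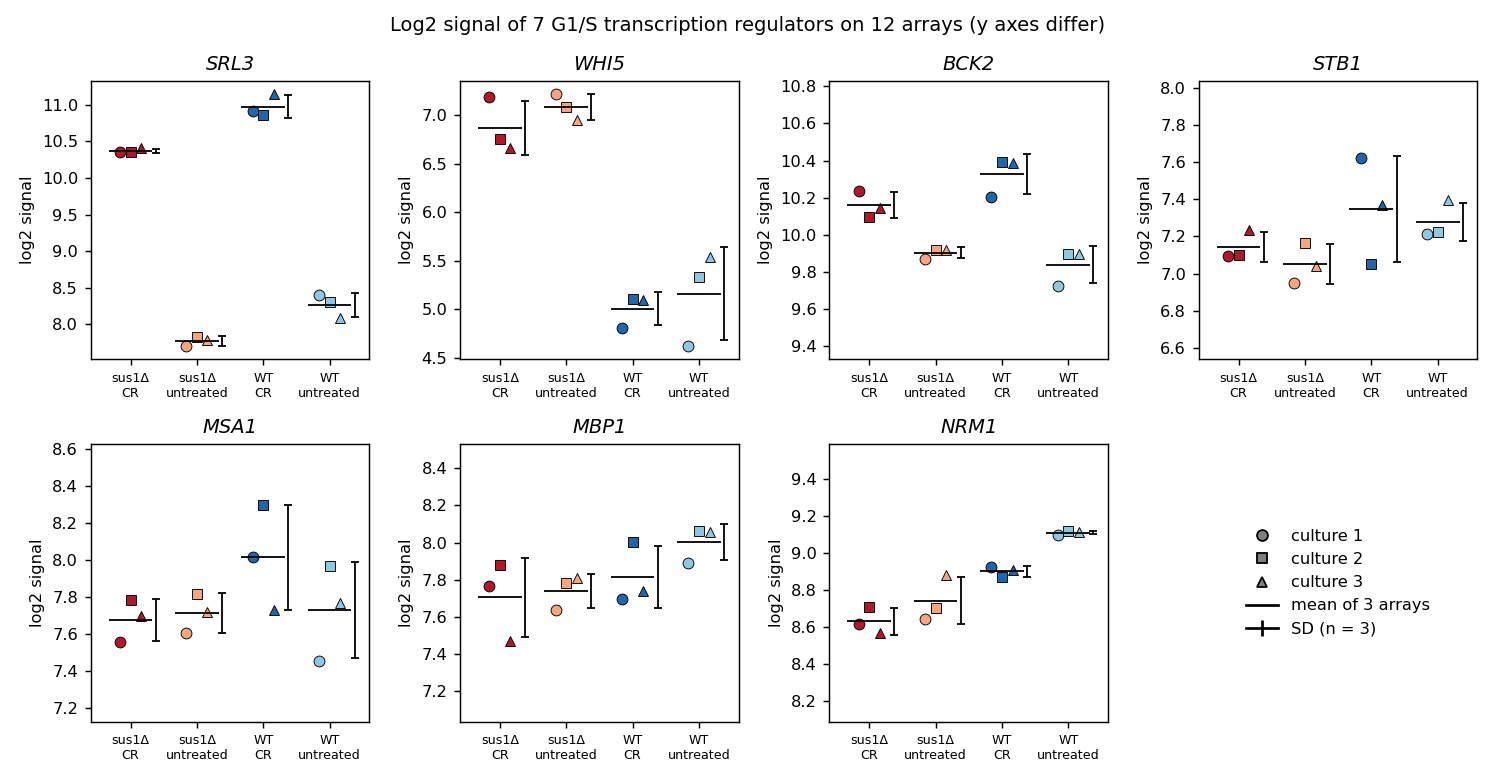
Log2 signal (y axis, own range in each panel) of the 7 regulators on the 12 arrays, by group (x axis), with circles, squares and triangles for cultures 1, 2 and 3 of a strain, a line at the mean and bars of 1 SD (n = 3). *SRL3* is above 10.3 on all CR arrays of both strains and below 8.5 on all untreated arrays, and *WHI5* is above 6.6 on all *sus1*Δ arrays and at most 5.53 on all WT arrays.

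The repressor gene *SRL3*, for whose rise with CR the set was chosen, had its strongest CR response, of nearly the same size in both strains. Its log2 signals in CR-treated *sus1*Δ cells were 10.35, 10.35 and 10.40, against 7.70, 7.83 and 7.79 in the untreated parts of cultures 1, 2 and 3. In WT cells they were 10.91, 10.86 and 11.15 with CR, against 8.40, 8.31 and 8.09 without CR. No array of a CR group overlapped with an array of an untreated group, and the 4 groups themselves did not overlap, in the order CR-treated WT, CR-treated *sus1*Δ, untreated WT and untreated *sus1*Δ cells from high to low. The level with CR was 6.04 times that without it in *sus1*Δ cells, a log2 difference of 2.60, and 6.52 times in WT cells, a log2 difference of 2.71. By culture the difference was 2.65, 2.52 and 2.62 in *sus1*Δ cells and 2.51, 2.55 and 3.06 in WT cells, so culture 3 of WT stood above the other 5. Without both arrays of that culture the difference in WT cells was 2.53.

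The response of *SRL3* to CR is compared between strains as a description only, and its level was lower in *sus1*Δ cells under both conditions. The response in *sus1*Δ cells minus that in WT cells was -0.11 (SE 0.14), and it was 0.07 without WT culture 3. No p is given, since *SRL3* was chosen for its response to CR. The level fell by 0.49 on the log2 scale in untreated *sus1*Δ cells, where the mean was 7.77 ± 0.066, against 8.27 ± 0.159 in untreated WT cells (SD, n = 3; ratio 0.71, adjusted p = 0.00503 from limma). Among CR-treated cells the level was lower by 0.60 in *sus1*Δ than in WT cells (ratio 0.66). The means were 10.37 ± 0.031 in *sus1*Δ cells and 10.97 ± 0.155 in WT cells (SD, n = 3). These are levels of whole cultures, in which fewer cells that make a transcript and less of it per cell cannot be told apart. The genes next to *SRL3* on its chromosome, looked at after their values were known, did not share its level with CR: the difference between CR-treated and untreated cells of *PXL1* was -0.07 in both strains, and that of *SRP40* was -0.42 in *sus1*Δ cells and -0.55 in WT cells.

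*WHI5*, which encodes the repressor of SBF, was higher without Sus1 and did not pass the test for CR. Its log2 signals in CR-treated cells were 7.18, 6.75 and 6.66 for *sus1*Δ and 4.81, 5.11 and 5.10 for WT. In untreated cells they were 7.22, 7.09 and 6.95 for *sus1*Δ and 4.62, 5.33 and 5.53 for WT. The lowest of the 6 *sus1*Δ arrays lay more than 1 log2 unit above the highest of the 6 WT arrays. The level rose by 1.93 on the log2 scale in untreated *sus1*Δ over untreated WT cells (SE 0.21, 95% confidence interval 1.46 to 2.39, ratio 3.80, adjusted p = 0.000182 from limma). With CR it was higher by 1.86 in *sus1*Δ cells (SE 0.21, 95% confidence interval 1.39 to 2.32, ratio 3.62, adjusted p = 0.000171 from limma). The CR difference was -0.22 in *sus1*Δ cells (95% confidence interval -0.69 to 0.24) and -0.15 in WT cells (-0.62 to 0.31), and the responses of the strains differed by -0.07 (adjusted p = 0.992 from limma). Of the 2 paralogs, *WHI5* was higher and *SRL3* lower in *sus1*Δ cells, the latter as a description.

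The size of the *WHI5* difference rests on dim signals. On WT arrays *WHI5* lay between percentiles 5.16 and 6.73 of the probe sets with CR and between 5.23 and 7.65 without CR, whereas on *sus1*Δ arrays it lay between 9.50 and 12.6 with CR and between 11.4 and 13 without CR. The signal below which 5% of the probe sets fall was itself higher on *sus1*Δ arrays, at 5.36 to 5.49, than on WT arrays, at 4.53 to 4.80. Among the 1362 genes of lowest mean signal (up to 8.15), which include *WHI5*, *STB1*, *MSA1* and *MBP1*, the median difference between *sus1*Δ and WT cells was 0.24 without CR and 0.18 with CR, and, *WHI5* included, 24 of them without CR and 27 with CR were at or above the *WHI5* value. Quantile normalization over the tested genes brought the difference of *WHI5* to 1.37 without CR (adjusted p = 0.00221 from limma) and 1.29 with CR (adjusted p = 0.00184 from limma), and the median of those dim genes to -0.05 and -0.06. The part of the raised dim end in the result was not tested beyond this. The measured neighbors of *WHI5*, looked at after their values were known, differed between untreated *sus1*Δ and WT cells by -0.02 for *TGL5* (adjusted p = 0.853 from limma) and 0.35 for *LPX1* (adjusted p = 0.112 from limma).

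**Figure D2:**
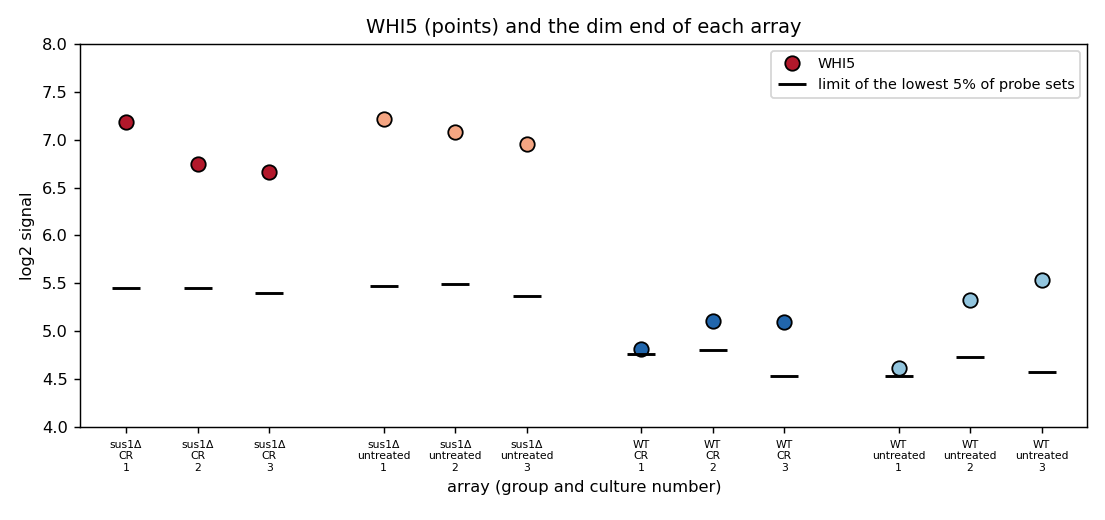
Log2 signal of *WHI5* (points, y axis) on each of the 12 arrays (x axis, by group and culture number), with a dash at the signal below which 5% of that array's probe sets lie. The *sus1*Δ points are at 6.66 to 7.22, above dashes at 5.36 to 5.49, and the WT points are at 4.62 to 5.53, close to dashes at 4.53 to 4.80.

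*NRM1*, the gene of the MBF corepressor, was lower in *sus1*Δ cells under both conditions. Its log2 signals with CR were 8.62, 8.71 and 8.57 in *sus1*Δ cells and 8.92, 8.87 and 8.91 in WT cells. Without CR they were 8.64, 8.71 and 8.88 in *sus1*Δ cells and 9.1, 9.12 and 9.11 in WT cells. The strains did not overlap under either condition. The level fell by 0.37 on the log2 scale in untreated *sus1*Δ cells (SE 0.07, ratio 0.78, adjusted p = 0.00606 from limma) and by 0.27 in CR-treated *sus1*Δ cells (SE 0.07, ratio 0.83, adjusted p = 0.0207 from limma). The call with CR was lost without WT replicate 1 (adjusted p = 0.0523), *sus1*Δ replicate 1 (adjusted p = 0.0649) or *sus1*Δ replicate 3 (adjusted p = 0.0778) of the CR-treated groups in limma. With CR *NRM1* differed by -0.11 in *sus1*Δ cells (adjusted p = 0.716 from limma) and by -0.21 in WT cells (adjusted p = 0.0734 from limma), where the arrays of the groups did not overlap and the cultures gave -0.18, -0.25 and -0.20. With culture as a random block the WT value passed the threshold (adjusted p = 0.0268 from limma), and with culture as a fixed block it did not (adjusted p = 0.0706 from limma). The chromosomal neighbor *CSE2*, looked at after its values were known, was also lower in untreated *sus1*Δ cells (-0.42, adjusted p = 0.00807 from limma). It was higher with CR in WT cells (0.30, adjusted p = 0.0431 from limma). The other neighbor, *LRO1*, differed by -0.17 between untreated strains (adjusted p = 0.292 from limma).

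*BCK2*, an activator of Start that was first found as a gene whose extra copies bypass the need for protein kinase C in the cell wall integrity pathway, was the other member that responded to CR. Its log2 signals were 10.24, 10.10 and 10.14 in CR-treated *sus1*Δ cells, against 9.87, 9.92 and 9.92 in untreated ones. In WT cells they were 10.21, 10.39 and 10.39 with CR, against 9.72, 9.90 and 9.89 without CR. All 6 cultures were higher with CR and the groups did not overlap in either strain, although the differences were small next to that of *SRL3*. By culture they were 0.37, 0.18 and 0.22 in *sus1*Δ cells and 0.48, 0.50 and 0.49 in WT cells. The rise passed the test in WT cells, at 0.49 (SE 0.08, ratio 1.41, adjusted p = 0.0014 from limma). In *sus1*Δ cells the difference was 0.26 (SE 0.08, 95% confidence interval 0.085 to 0.43, ratio 1.20, adjusted p = 0.206 from limma) and it did not pass. With culture as a random block it passed (adjusted p = 0.0352 from limma), and with culture as a fixed block it did not (adjusted p = 0.0747 from limma). The response in *sus1*Δ cells minus that in WT cells was -0.23 (95% confidence interval -0.48 to 0.0091, adjusted p = 0.611 from limma, and 0.195 with the random block), so the smaller value in *sus1*Δ cells was not shown to differ from that in WT cells. The strains differed by 0.06 without CR (adjusted p = 0.595 from limma) and by -0.17 with CR (adjusted p = 0.129 from limma).

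*MBP1*, *STB1* and *MSA1* were not called by limma in any comparison with all 12 arrays as deposited. After quantile normalization over the tested genes, *STB1* (-0.51, adjusted p = 0.0207 from limma) and *MBP1* (-0.39, adjusted p = 0.0308 from limma) were lower in untreated *sus1*Δ than WT cells. Between CR-treated strains *STB1* (-0.42, adjusted p = 0.0333 from limma) and *MSA1* (-0.42, adjusted p = 0.0329 from limma) were then lower in *sus1*Δ cells. For *MBP1*, the gene of the DNA-binding subunit of MBF, the signals with CR were 7.77, 7.88 and 7.47 in *sus1*Δ cells and 7.69, 8.01 and 7.74 in WT cells, and without CR they were 7.63, 7.78 and 7.81 in *sus1*Δ cells and 7.89, 8.06 and 8.06 in WT cells. The untreated strains did not overlap, and their difference was -0.26 (SE 0.12, 95% confidence interval -0.52 to -0.0061, adjusted p = 0.133 from limma). With CR the strains overlapped and differed by -0.11 (adjusted p = 0.517 from limma). The CR difference of *MBP1* was -0.04 in *sus1*Δ cells (adjusted p = 0.974 from limma) and -0.19 in WT cells (adjusted p = 0.304 from limma). Its neighbor *YDL057W*, looked at after its values were known, was higher with CR in WT cells (0.85, adjusted p = 0.000604 from limma). It was also higher in untreated *sus1*Δ over WT cells (0.61, adjusted p = 0.00448 from limma). The other neighbor, *PSA1*, was called in neither (adjusted p = 0.0562 and 0.111 from limma).

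*STB1*, whose protein binds Swi6, had signals with CR of 7.09, 7.10 and 7.23 in *sus1*Δ cells and of 7.62, 7.05 and 7.37 in WT cells. Without CR they were 6.95, 7.16 and 7.04 in *sus1*Δ cells and 7.22, 7.22 and 7.39 in WT cells. The strains did not overlap without CR, at a difference of -0.23 (adjusted p = 0.225 from limma), and overlapped with CR through WT culture 2, at -0.20 (adjusted p = 0.25 from limma). Without that array the difference with CR was -0.35 (adjusted p = 0.0315 from limma). The CR difference was 0.09 in *sus1*Δ cells and 0.07 in WT cells. Its neighbors were looked at after their values were known. With CR in WT cells *KRI1* differed by -0.47 (adjusted p = 0.00698 from limma) and *ZIM17* by -0.17 (adjusted p = 0.143 from limma). Between untreated strains *KRI1* differed by 0.27 (adjusted p = 0.0754 from limma) and *ZIM17* by -0.21 (adjusted p = 0.0571 from limma).

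*MSA1* encodes a protein that associates with SBF and MBF. Its signals with CR were 7.56, 7.78 and 7.70 in *sus1*Δ cells and 8.02, 8.30 and 7.73 in WT cells, and without CR they were 7.61, 7.82 and 7.72 in *sus1*Δ cells and 7.46, 7.97 and 7.77 in WT cells. The groups overlapped in all comparisons. The CR difference was -0.03 in *sus1*Δ cells (adjusted p = 0.986 from limma) and 0.28 in WT cells (SE 0.15, adjusted p = 0.234 from limma). With CR the strains differed by -0.34 (SE 0.15, adjusted p = 0.123 from limma), and by -0.48 (adjusted p = 0.0347 from limma) without WT culture 3. Without CR they differed by -0.02 (adjusted p = 0.958 from limma).

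Counted over the set, few members passed the test for CR. In *sus1*Δ cells none of the 6 members tested for CR was called by limma, 1 had an unadjusted p under 0.05 (*BCK2*), where 1.54% of all genes were called in either direction, 1.39% as higher and 0.147% as lower, and 10.2% had an unadjusted p under 0.05. In WT cells 1 of these 6 was called, *BCK2*, as higher, where 18.4% of all genes were called, 9.4% as higher and 9.01% as lower. The arrays of CR-treated and untreated cells did not overlap for 1 of these 6 in *sus1*Δ cells (*BCK2*), against 28.1% of all genes, and for 2 of 6 in WT cells (*BCK2* and *NRM1*), against 27.5% of all genes. The model behind these counts leaves out that 2 arrays share a culture. With culture as a random block *BCK2* was also called higher in *sus1*Δ cells and *NRM1* lower in WT cells. Over all genes the block called 154 higher and 59 lower in *sus1*Δ cells, and 812 and 892 in WT cells. *SRL3*, chosen for its response to CR, is left out of the counts of members.

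Between strains the called members were the same 3 under both conditions, *WHI5* higher in *sus1*Δ cells and *SRL3* and *NRM1* lower. *SRL3* is in the counts of calls and of arrays below as a description only, since it was chosen for its level with CR. *WHI5* was also the 1 member past a ratio of 2, as were 2.46% of all genes without CR and 2.35% with CR, and no member was at or under 0.5. Without CR 3 of 7 were called, where 21.4% of all genes were, 14.3% as higher and 7.08% as lower, and the arrays of 5 of the 7 did not overlap, where those of 41.7% of all genes did not. With CR 3 of 7 were called, where 27.7% of all genes were, 16.8% as higher and 10.9% as lower, and the arrays of 3 did not overlap, where those of 45.3% of all genes did not. Of all called genes, 66.9% were higher in untreated *sus1*Δ cells and 60.7% in CR-treated *sus1*Δ cells, and after quantile normalization 50.0% and 47.5%. The CR responses of the strains differed for 0 of the 6 members other than *SRL3* (adjusted p from 0.611 to 0.994 in limma, 0 with an unadjusted p under 0.05), where 0.0734% of all genes were called and 8.63% had an unadjusted p under 0.05. The comparisons share arrays, so the columns of the plot of fitted differences are not independent of each other.

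**Figure D3:**
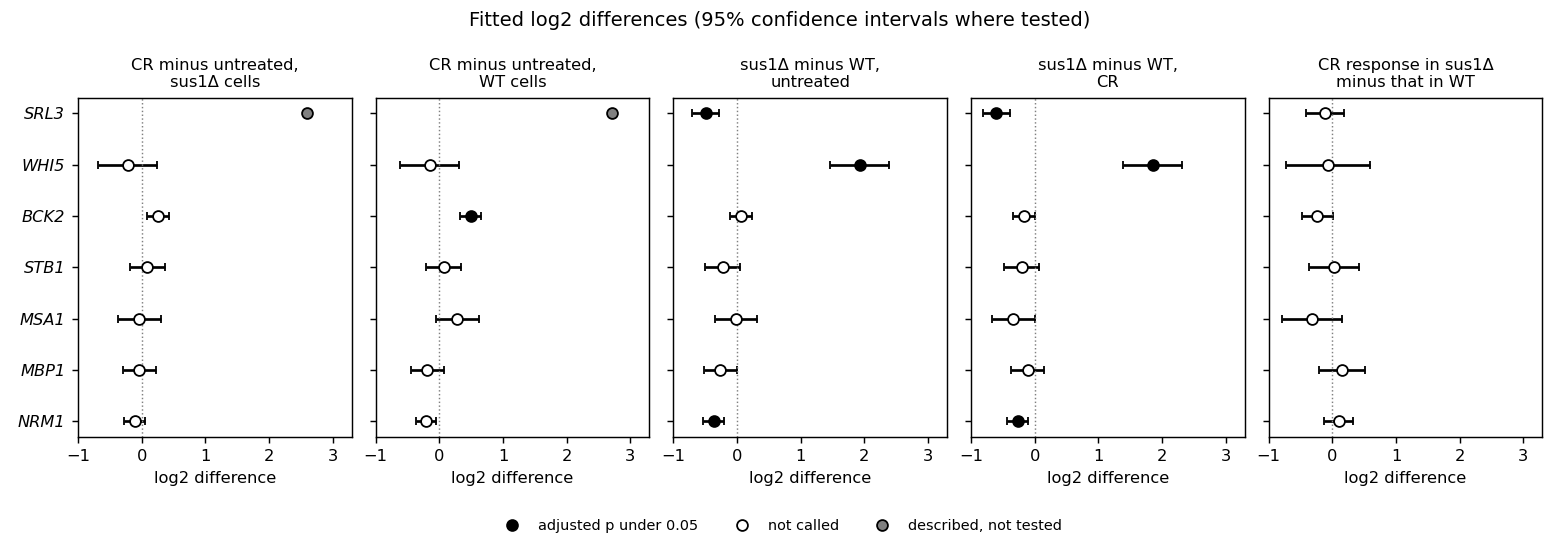
Fitted log2 differences (x axis) of the 7 regulators (rows) in the 5 comparisons (panels), with 95% confidence intervals where tested, filled black where the adjusted p was under 0.05, white where it was not and grey without an interval where no test was made. *SRL3* is at 2.60 and 2.71 for CR, and *WHI5* is at 1.93 and 1.86 for *sus1*Δ minus WT. The intervals and fills of *SRL3* between strains and in the last panel are a description, since the gene was chosen for its response to CR.

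As a description of which genes varied most like each member, Pearson correlations were taken over the 12 arrays, which share 4 groups and the pairs of 1 culture. *SRL3* was most like *PRM5*, a gene that Rlm1, the transcription factor under Slt2, is known to drive, with r = 0.997, followed by *SLT2* itself (0.987), *YNL058C* (0.984), the mannosyltransferase gene *KTR2* (0.984), the cell wall mannoprotein gene *CWP1* (0.982), *YCL049C* (0.982), *YPL088W* (0.981) and *FLC2* (0.978). By rank correlation only *PRM5* and *CWP1* of these 8 stayed among the 8 most alike. These genes were chosen for their likeness to *SRL3*, so their values are a description: the CR difference was 2.15 in *sus1*Δ and 2.12 in WT cells for *PRM5* and 1.72 in *sus1*Δ and 1.55 in WT cells for *CWP1*, and untreated *sus1*Δ and WT cells differed by -0.47 for *PRM5* and -0.58 for *CWP1*. The genes most like *BCK2* were *GSC2*, a glucan synthase subunit (r = 0.980), *PPZ1*, a phosphatase (0.975), and *DFG5*, a GPI-anchored mannosidase homolog (0.972).

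*WHI5* was most like *AAR2*, a gene of snRNP assembly (r = 0.985), the meiotic gene *GMC1* (0.981) and the repair gene *RAD34* (0.979), chosen in the same way, with differences between untreated *sus1*Δ and WT cells of 2.78 for *AAR2*, 1.19 for *GMC1* and 1.42 for *RAD34*. *NRM1* was most like *ARC1*, a cofactor of tRNA synthetases (0.955), *BTS1*, an enzyme of prenyl lipid synthesis (0.952), and the tRNA synthetase gene *GLN4* (0.950). *MBP1* was most like the clamp loader gene *CTF18* (0.958), also an MBF target in the lists used here, the chaperone gene *SSA1* (0.882) and the inositol phosphate kinase gene *KCS1* (0.878). *STB1* was most like the helicase gene *MCM3* (0.937), *SNP1* (0.927) and *MAP2* (0.924), and *MSA1* most like *CDC48*, which encodes an ATPase that extracts ubiquitinated proteins (0.906), *YBR259W* (0.904) and *ACF2* (0.896). Among the 7 members themselves the highest correlation was that of *SRL3* with *BCK2* (r = 0.903) and the lowest that of *WHI5* with *NRM1* (r = -0.783), whereas *SRL3* and *WHI5* had r = -0.297.

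Around the members, the share of 20 other Start regulators called with CR in WT cells was close to that of all genes, and *CLN3* rose without Sus1. Swi4 and Swi6, the partners through which Whi5 and Stb1 act, were called in none of the comparisons. With CR *SWI4* differed by -0.02 in *sus1*Δ and -0.05 in WT cells, and *SWI6* by -0.08 in *sus1*Δ and -0.12 in WT cells. Of 20 further Start regulators, *SWI4* and *SWI6* included, 0 were called with CR in *sus1*Δ cells (3 had an unadjusted p under 0.05 in limma) and 4 were higher and 0 lower in WT cells, which is 20% of the list, beside 18.4% of all genes. Among the 4 were *CDC28*, the kinase of Start (0.33, adjusted p = 0.0132 from limma) and *MSA2*, the paralog of *MSA1* (0.33, adjusted p = 0.00837 from limma). Without WT culture 3 only 1 was called in WT cells, and with culture as a random block 5 were higher and 1 lower. Between untreated strains 2 were higher and 1 lower in *sus1*Δ cells, and between treated strains 3 were higher and 2 lower (15% and 25% of the list, beside 21.4% and 27.7% of all genes). The 1 lower without CR was *MSA2* (-0.22, adjusted p = 0.049 from limma), which was not called in 15 of 24 alternatives. With culture as a random block the untreated counts were 3 higher and 0 lower, and after quantile normalization 2 and 2.

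*CLN3*, the G1 cyclin that acts against Whi5, was higher without Sus1 under both conditions, as *WHI5* was. It was at 9.53 to 9.95 in CR-treated and 9.31 to 9.67 in untreated *sus1*Δ cells, against 8.97 to 9.24 in CR-treated and 8.46 to 8.96 in untreated WT cells. Its level rose by 0.85 without CR (SE 0.15, adjusted p = 0.00319 from limma) and by 0.59 with CR (adjusted p = 0.0141 from limma) in *sus1*Δ over WT cells. With CR itself it differed by 0.19 in *sus1*Δ cells (adjusted p = 0.795 from limma) and by 0.45 in WT cells (adjusted p = 0.0589 from limma). *WHI3*, whose protein holds back *CLN3* mRNA, rose by 0.72 in *sus1*Δ over WT cells with CR, *CDC28* fell by 0.39 and *MSA2* by 0.38. *SWI4* differed by -0.22 with CR (adjusted p = 0.248 from limma) and -0.25 without CR (adjusted p = 0.206 from limma), and *SWI6* by -0.10 with CR (adjusted p = 0.269 from limma) and -0.14 without CR (adjusted p = 0.159 from limma).

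Targets of SBF moved in both directions. Of 17, 1 was higher and 0 lower with CR in *sus1*Δ cells, the wall protein gene *SVS1* (0.62, adjusted p = 0.0131 from limma), and 3 were higher and 2 lower in WT cells, with *SVS1* (0.70), the cyclin gene *PCL1* (0.44) and *GIC2* (0.43) higher and the endonuclease gene *HO* (-0.71) and *PLM2* (-0.52) lower (29.4% of the list, beside 18.4% of all genes). The median over the list was 0.13 in *sus1*Δ and 0.155 in WT cells, beside -0.03 and -0.02 for all genes. With culture as a random block the counts were 2 higher and 0 lower in *sus1*Δ cells and 5 higher and 4 lower in WT cells, and without WT culture 3 they were 2 and 1 in *sus1*Δ cells. In untreated *sus1*Δ over WT cells 2 were higher and 4 lower (35.3% of the list, beside 21.4% of all genes). These counts were 1 and 7 without WT culture 3 and 1 and 4 with the random block. In CR-treated cells 1 was higher (2 without WT culture 3) and 6 lower, which is 41.2% of the list, beside 27.7% of all genes. The G1 cyclin gene *CLN2* (-0.60), *PCL2* (-0.62) and *CSI2* (-0.59) were among the lower ones, and the mannosyltransferase gene *MNN1* (0.52) was the higher one. The cyclin gene *CLN2* was lower without CR also, by -0.44 (adjusted p = 0.0453 from limma), which was not past the threshold in 11 of 24 alternatives.

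Targets of MBF were more often called lower than higher with CR in WT cells. Of 30 measured from a list of 32, 1 was higher and 6 lower in WT cells, with the flap endonuclease gene *RAD27* (-0.49, adjusted p = 0.00704 from limma), the polymerase subunit gene *POL12* (-0.37) and the mismatch repair gene *MSH6* (-0.34) lower and the checkpoint kinase gene *DUN1* (0.33) higher (23.3% of the list, beside 18.4% of all genes). This count was 1 higher and 2 lower without WT culture 3, and 1 higher and 11 lower with culture as a random block. In *sus1*Δ cells 0 were called and 0 had an unadjusted p under 0.05 in limma. In CR-treated *sus1*Δ over WT cells 9 were higher and 4 lower (43.3% of the list, beside 27.7% of all genes). Among the higher ones were *RAD27* (0.71), the ribonucleotide reductase gene *RNR1* (0.53) and *POL12* (0.52). The lower ones included *DUN1* (-0.55), the thymidylate synthase gene *CDC21* (-0.50) and the primase gene *PRI1* (-0.31). In untreated cells 2 were higher, *RNR1* (0.50) and *POL30* (0.20), and 3 lower, *CDC21* (-0.48), *PDS1* (-0.37) and *PRI1* (-0.29), with 2 and 5 after quantile normalization. Without that normalization this is 16.7% of the list, under the 21.4% of all genes. The difference between the strains' CR responses was called for 0 of these 30 genes, of which 5 had an unadjusted p under 0.05 in limma.

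Some genes that peak in other cell cycle phases also differed between strains, not in all lists more often than all genes did. The part of the cells' phase in the values of the 7 members was not tested. Of 17 genes of the M/G1 boundary, 7 were higher and 0 lower in untreated *sus1*Δ over WT cells (median 0.30, beside 0.03 for all genes). In CR-treated cells 9 were higher and 0 lower (median 0.32). These are 41.2% and 52.9% of the list, beside 21.4% and 27.7% of all genes. In CR-treated *sus1*Δ over WT cells the daughter cell wall genes *DSE1* (0.78) and *SCW11* (0.75) and the mitotic exit regulator *AMN1* (0.67) rose the most. Without WT culture 3 the counts were 9 and 1 without CR and 8 and 1 with CR, and with culture as a random block they were 8 and 1 with CR. Of 14 measured G2/M genes, 5 were higher and 0 lower without CR, the motor gene *KIP2* (0.63), the cyclin gene *CLB2* (0.59) and *SWI5* (0.55) among them. In CR-treated *sus1*Δ over WT cells 3 were higher and 0 lower. These are 35.7% of the list without CR and 21.4% with CR, the latter under the 27.7% of all genes. Of 8 measured histone genes 0 were called without CR, with 1 lower without WT culture 3 and 2 higher after quantile normalization. *HTA2* (0.26) and *HTA1* (0.21), near-identical copies that probes may not tell apart, were higher in CR-treated *sus1*Δ than in CR-treated WT cells. There the random block gave 1 higher. Between CR-treated strains 25% of the list was called, close to the 27.7% of all genes. With CR in WT cells 1 M/G1 gene was higher and 1 lower, 1 G2/M gene was higher and 0 histone genes were called. These are 11.8%, 7.14% and 0% of the lists, beside 18.4% of all genes. In *sus1*Δ cells 0 genes of these 3 lists were called, with 2 at an unadjusted p under 0.05 in limma, beside 1.54% and 10.2% of all genes. With culture as a random block 4 M/G1, 3 G2/M and 3 histone genes were lower with CR in WT cells, 1 M/G1 gene was higher in *sus1*Δ cells, and the difference between responses was called for 1 G2/M gene.

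**Figure D4:**
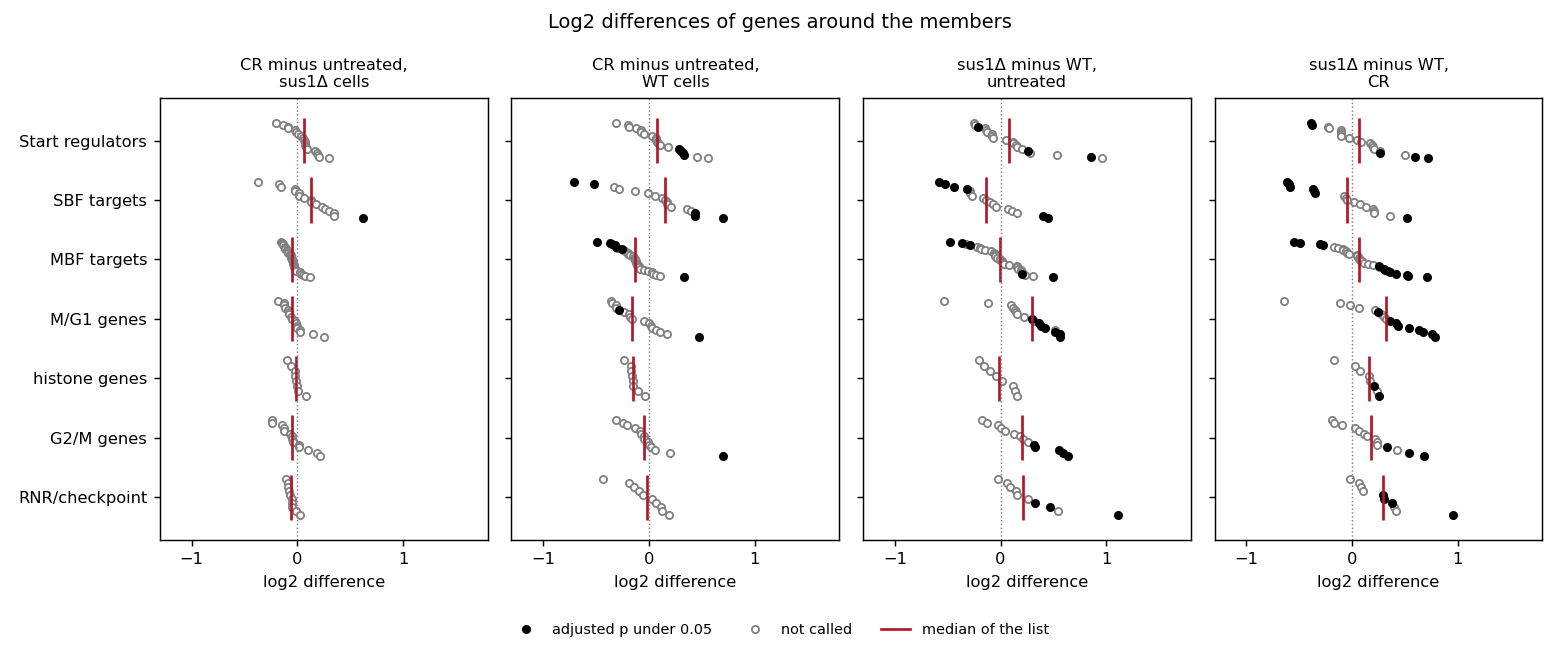
Log2 differences (x axis) of the genes in 7 lists around the members (rows) in 4 comparisons (panels), each point 1 gene, filled black where the adjusted p was under 0.05, with a red line at the median of the list. With CR in *sus1*Δ cells 1 of the 116 points is filled, and in CR-treated *sus1*Δ against WT cells 43 are.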

How the data were processed

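The deposited values are log2 signals of 12 arrays, which the authors computed from the scans by RMA in the Affymetrix Expression Console (background correction, quantile normalization and summary of each probe set). No version of that program is stated, nor which arrays were normalized together. After this step the arrays still differed by strain. On *sus1*Δ arrays 5% of the probe sets fell below a signal of 5.36 to 5.49, against 4.53 to 4.80 on WT arrays. Median SDs per gene were 0.0784 and 0.0712 in the *sus1*Δ groups and 0.148 in both WT groups. Whether the strains were processed apart was not tested. Differences between strains, and the shares of genes called, may therefore include a part from processing. Of 5739 probe sets, the platform annotation gave 5498 to 1 gene each and left 241 unnamed. For 47 genes the brightest probe set was kept, and 49 were left out, which left 5449 genes. In R 4.3.3, limma 3.58.1 fitted a mean per group to all 12 arrays, and two-sided p-values were adjusted over all genes. The number of arrays limits the precision.

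Named were all members, up to 3 called genes per list, direction and comparison, *SWI4*, *SWI6*, and the 8 genes most like *SRL3* or 3 most like each other member. The chromosomal neighbors were added after their values were seen. Those of *BCK2* and *MSA1* were not called with CR in either strain or between untreated strains. The members and the lists, written from general knowledge of yeast, were chosen with earlier results of these data known.

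Alternatives changed the test, the call rule, the fold, the probe sets, the filter on dim genes, the scaling, the arrays, the variance model and the block. Deviations from group means correlated at 0.247 to 0.716 in the 6 pairs that the methods and design give to 1 culture, at -0.595 to -0.00134 in 12 pairs of 1 strain with other numbers, and at -0.0305 to 0.193 for the same number across strains. Deviations within a group cancel out, so positive pairs of 1 culture make the pairs with other numbers negative on average. The pairing of arrays by culture is therefore read from the 6 positive pairs. The steps were tested on simulated data. Sequences and genome coordinates were not used here.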

Additional observations from a re-analysis of the deposited data

How the results depend on the processing

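Each member's difference was recomputed under 22 to 26 alternatives. Of 855 single values, 831 kept their side of the threshold (21 of them uncalled with the other sign), 7 lost a call, 16 gained one, 1 moved and 0 reversed. A further ratio limit (2 or more, 0.5 or less) left 0 members called higher with CR in WT cells and 0 called lower in *sus1*Δ cells without or with CR. With the t-test of the methods after adjustment, 0 were higher and 1 (*NRM1*) lower with CR in WT cells, and 0 were higher and 0 lower in untreated *sus1*Δ over WT cells. Unadjusted, it called 1 lower with CR in WT cells, 1 higher (*BCK2*) in *sus1*Δ cells and 3 lower in untreated *sus1*Δ over WT cells, *MBP1* besides (p = 0.0272 from the t-test of the methods, not an exact test). *BCK2* was also the 1 called higher in *sus1*Δ cells with only the arrays of these 2 groups or with array weights. The filter on dim genes removed *WHI5* itself, which left 0 higher in *sus1*Δ cells without and with CR. Quantile normalization gave 4 lower in untreated *sus1*Δ over WT cells, *STB1* and *MBP1* besides, and 4 lower in CR-treated ones, *STB1* and *MSA1* besides. Leaving out 1 array changed the count of members lower in CR-treated *sus1*Δ over WT cells to between 1 and 3. The cause of these shifts was not tested.

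With culture as a random replicate block, 1 member (*NRM1*) was called lower with CR in WT cells and 1 (*BCK2*) higher in *sus1*Δ cells. The block, random or fixed, changed no other count of members. Over all genes the random block took the counts with CR to 154 higher and 59 lower in *sus1*Δ cells (76 and 8 without it), to 812 and 892 in WT cells (512 and 491 without it), and for the difference between responses to 27 and 60 (0 and 4 without it). Among the list genes, *CLN2* and *POL30* between untreated strains were not called in 11 and 14 of 24 alternatives. *HTA1* between CR-treated strains was not called in 15 of 24, and *PCL1* with CR in WT cells in 15 of 25. By rank correlation 2 of the 8 genes most like *SRL3* stayed. The t-test and the fit to 2 groups could not be run for the difference between responses. Signal limits *WHI5* most, since its WT values lie near the dim end of the arrays.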

Other observations

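Ribonucleotide reductase and the DNA damage checkpoint supply and guard the DNA synthesis that follows Start. In a list of 10 of their genes, those called between strains were higher in *sus1*Δ cells. They were *HUG1*, *RNR2*, *RNR4* and, with CR only, *DIF1*. Counted above among the MBF targets, the checkpoint kinase gene *DUN1* was lower in *sus1*Δ cells with CR (-0.55), whereas *RNR1* was higher (0.53). *HUG1*, whose small protein inhibits ribonucleotide reductase and whose transcript is known to rise with DNA damage, was at 8.22 to 8.28 in untreated *sus1*Δ cells, against 6.99 to 7.25 in untreated WT cells. Its level rose by 1.11 on the log2 scale without CR (SE 0.08, adjusted p = 1.09e-05 from limma) and by 0.95 with CR (adjusted p = 2.77e-05 from limma). *RNR2* and *RNR4*, the genes of the small subunit, rose by 0.47 and 0.33 without CR and by 0.38 and 0.30 with CR. Of the 10 genes of this list 3 were higher and 0 lower in untreated *sus1*Δ over WT cells (median 0.21, beside 0.03 for all genes). In CR-treated *sus1*Δ over WT cells 4 were higher and 0 lower (median 0.29). These are 30% and 40% of the list, beside 21.4% and 27.7% of all genes. Without WT culture 3 the counts were 5 and 0 under both conditions. With CR 0 of the 10 were called in either strain by limma, and with culture as a random block 1 was higher and 1 lower in WT cells. Of the 10, 0 had an unadjusted p under 0.05 in *sus1*Δ cells.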
